A study of Mus musculus with 20 samples.

Results

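The genes described here are 22 of the 31130 genes counted in mouse NPCs in culture (nephron progenitor cells, the cells of the embryonic kidney from which nephrons form). They were chosen by their own measured counts, because the Wnt agonist CHIR99021 (CHIR) raised them in control cells and because their counts in high CHIR were much lower in cells given guides against β-catenin. A gene was taken when its normalized counts, which are read counts divided by 1 scaling factor per library, met 3 limits. The mean of the control libraries in high CHIR was at least 100, the lowest of those libraries was at least 3 times the highest control library in low CHIR, and each of the 3 β-catenin knockout libraries in high CHIR was at most 50% of the lowest control. The first limit was met by 10619 genes, the first and second by 122 and all by 28. Of these, 6 genes described with other groups of genes (Adamts9, Ntsr2, Sema5b, Smoc2, Psd2 and Ovol1) were set aside by name. The remaining 22 were Adgrg2, Asgr1, Bcat1, Btf3-ps11, Cecr2, Crygn, Ctxn3, Gm13003, Gm14204, Gm50405, Gnaz, Gpr153, Htr3a, Mgl2, Pnp2, Rmst, Rnase12, Sct, Shisa2, Tnnt3, Tppp3 and Vegfc. All of them passed the filter of a mean of 10 normalized counts over the 20 libraries, but a gene chosen for a high level in one group could hardly fail it.

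The NPCs were primary cells from kidneys of embryonic day 16.5 whose genotype in the labels is Cas9-eGFP, from crosses of Cas9-eGFP and SWR/J mice, so every culture carried the knock-in that encodes Cas9 and eGFP, and the cultures differed in their guide RNAs. Each culture was given either 1.25 μM CHIR (low), which maintains progenitors, or 5 μM CHIR (high), which induces them. CTRL cells received a guide against GFP (3 libraries in each dose) and bKO cells guides against Ctnnb1, the β-catenin gene (3 libraries in each dose). aKO cells received a guide against Ctnna1, the α-catenin gene, and QCKO cells guides against the cadherins Cdh2, Cdh3, Cdh4 and Cdh11 (2 libraries each in each dose). Guides were transfected with an mCherry reporter and the transfected cells were sorted as a pool and not as clones, so a library can hold cells that kept an intact allele. RNA was sequenced in bulk, and fewer cells of a kind cannot be told apart from less RNA per cell. Replicate numbers stand for 3 dates in the sample titles, called dates 1 to 3 here. CTRL and bKO have all of them, aKO dates 1 and 3 and QCKO dates 2 and 3. Whether a date is that of isolation, culture or sorting is not given, and p-values measure the spread between these libraries.

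β-catenin has a pair of roles. In the nucleus it binds TCF and LEF factors on DNA and activates Wnt target genes, and CHIR acts upstream of this by blocking the kinase GSK3, which otherwise marks β-catenin for destruction. At the membrane β-catenin binds the tails of cadherins and, through α-catenin, connects them to actin, which holds cells together. In the kidney, Wnt9b from the ureteric bud acts through β-catenin to start nephron formation, during which progenitors stop expressing Six2, aggregate and become an epithelium. Loss of β-catenin removes both roles, whereas loss of α-catenin or of the cadherins removes the adhesive one, so aKO and QCKO are called the adhesion knockouts below.

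The designed guides against Ctnnb1 are shown because the choice of genes rests on the cells that received them. They are RNA guides listed as DNA letters, 5′ to 3′, each named with the exon the list gives, and no base is in capitals because none is singled out. A further entry of the list, named guide 6 for exon 6, has the same letters as guide 5, so the exon of that guide is not settled by the list, and no edit was analysed here.
Ctnnb1 guide 1, exon 2: atgagcagcgtcaaactgcg
Ctnnb1 guide 3, exon 3: agccaagcgctggacattag
Ctnnb1 guide 5, exon 3: gagattatgcagtgtcgtga
The guide against Ctnna1 that made the aKO cells is given with the letters of RNA.
Ctnna1 guide: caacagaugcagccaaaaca

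Library totals ran from 18124772 to 28472412 reads with a median of 21449823. Ctnna1 was lowest in aKO, with 3599, 3790.2, 3564 and 3621 normalized counts in its 4 libraries against 5817 to 11092 in all others. Cdh11 had 1818 to 2519 in QCKO low against 3513 to 7670.0 in the other low libraries, and 589 to 1005 in QCKO high against 1443 to 4169 in the other high libraries. Cdh2 in QCKO overlapped CTRL at both doses, as did Cdh4 and Cdh3, so the counts of these 3 do not show the knockout. For the proteins, the authors report by immunofluorescence that the guides removed all or most of each cadherin, similarly when guides were combined. Ctnnb1 has no symbol in the tables used here and its level was not analysed, so the knockout that the choice rests on was checked only through other genes. Six2, the progenitor transcription factor, had 943 to 1642 in CTRL low and 64.1 to 83.8 in CTRL high, 773 to 1236 in bKO low and 409 to 798 in bKO high. The adhesion knockouts had 1318 to 1468 with low and 27.8 to 63.5 with high CHIR. Of the other cell types, 1 of 8 leukocyte markers had an identifier, Laptm5, with 26.0 to 52.9 in CTRL low, 0 to 2.27 in CTRL high, 4.43 to 28.9 in bKO high, 0 to 39.9 in aKO high and 2.41 to 8.42 in QCKO high, and its part in the results was not tested. The only endothelial marker of 8 with an identifier, the angiopoietin receptor Tek, moved with the 22 genes, from 0 to 3.25 in CTRL low to 89.7 to 177 in CTRL high and 4.62 to 85.3 in bKO high. In the adhesion knockouts it was called higher in high CHIR, at a log2 difference of 5.70 (adjusted p = 5.40e-05), with 92.7 to 383 in aKO high and 221 to 357 in QCKO high, and its part in the results was not tested. The 5 of 13 ureteric markers with an identifier summed to 324 to 1597 in CTRL low, 865 to 1060 in CTRL high, 633 to 1130 in bKO high, 1299.7 to 2173 in aKO high and 1752 to 2004 in QCKO high, and their part was not tested either. The 2 of 10 stromal markers summed to 3221 to 3819 in CTRL low and 1030 to 1511 in CTRL high.

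The bKO libraries of date 1 stood apart from those of dates 2 and 3 in the standard target genes of the Wnt pathway. Axin2, a scaffold of the complex that destroys β-catenin and a feedback inhibitor, had 39.3, 71.5 and 61.4 in CTRL low and 357, 435 and 391 in CTRL high. The bKO low libraries had 14.0, 559.7 and 384 and the bKO high libraries 18.5, 743 and 687. The date 1 library was thus below every CTRL low library at both doses, while the libraries of dates 2 and 3 were at 129% and 98.1% of the same-date CTRL high library already in low CHIR and at 171% and 176% in high CHIR. Notum, a secreted enzyme that inactivates Wnt proteins, was likewise lowest on date 1, with 1.07, 562 and 325 in bKO low and 4.62, 407 and 578 in bKO high against 3.57, 6.50 and 5.29 in CTRL low. So did the transcription factor Sp5 (1.16, 68.7 and 88.5 in bKO high) and the Wnt receptor Fzd10 (4.62, 187 and 317 in bKO high, against 20.4, 38.5 and 47.8 in CTRL high). How far β-catenin was removed in each bKO library was not tested, and values for these libraries are given by date. Without the bKO high library of date 1 the 3 limits chose the same 22 genes, without that of date 2 they chose 43 and without that of date 3 they chose 26. Leaving out a bKO high library can only loosen the third limit, so the 22 could not drop out.

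As a percentage of the CTRL high library of the same date, the median of the 22 genes in bKO high was 5.43% on date 1, 31.2% on date 2 and 19.1% on date 3. The highest single value was 46.5%, for Cecr2 on date 2. The third limit allows at most 50% of the lowest CTRL high library, so these values and their distance from Axin2, at 5.17%, 171% and 176%, were fixed in large part by the choice. The 94 other genes that met the first 2 limits had medians of 10.7%, 71.3% and 47.9% in the same libraries. The same limit separates these sets, so the difference between them in high CHIR is a description and has no test. In bKO low, whose counts the limits did not use but which is divided here by CTRL high libraries that they did, the medians of the 22 genes were 2.77%, 10.4% and 15.7%, and, again as a description, those of the 94 genes 6.54%, 32.3% and 29.4%. In the adhesion knockouts the 22 genes had medians of 105% and 96.2% in aKO high and 79.2% and 103% in QCKO high, and the 94 genes 102% and 116%, and 132% and 116%, again divided by CTRL high libraries that the limits used.

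**Figure D1:**
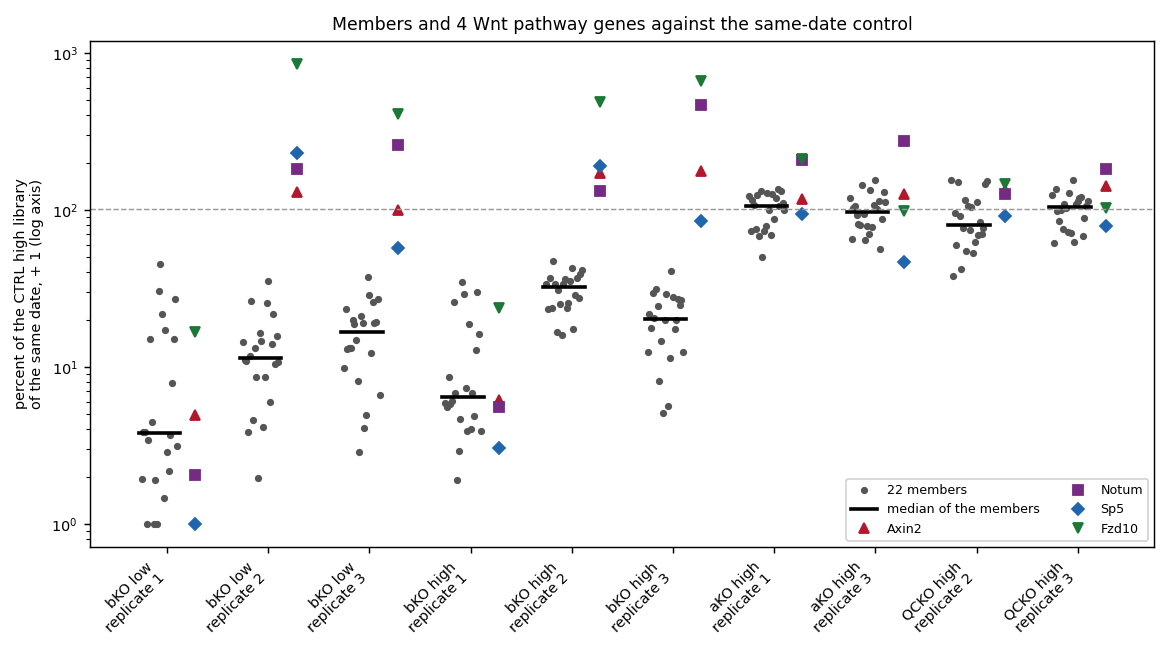
Each library's normalized count as a percentage of the CTRL high library of the same date, plus 1, on a log axis, with 1 grey point for each of the 22 genes, a black bar at their median and coloured symbols for Axin2, Notum, Sp5 and Fzd10. The limit on loss holds the 22 genes under 50% in bKO high, where their medians are 5.43%, 31.2% and 19.1% in replicates 1 to 3 and Axin2 is at 5.17%, 171% and 176%.

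Among the secreted products and regulators of signalling, the highest count was that of Sct, which encodes the peptide hormone secretin. Sct had 1482, 3252 and 2799.7 normalized counts in the CTRL low libraries and 11347, 17929 and 10838 in CTRL high. It had 437, 4953 and 2046 in bKO high, 15336 and 12239 in aKO high and 14750.5 and 12897 in QCKO high. All 4 adhesion knockout libraries in high CHIR lay within the CTRL high range, and the bKO high libraries spanned from below CTRL low on date 1 to above it on date 2. Vegfc encodes the growth factor that drives lymphatic vessel growth. Vegfc had 13.4, 6.50 and 9.53 normalized counts in the CTRL low libraries and 552, 413 and 627 in CTRL high. It had 16.2, 167 and 72.0 in bKO high, 544 and 697 in aKO high and 625 and 702 in QCKO high. The bKO high libraries were all above the CTRL low range of 6.50 to 13.4. Shisa2 encodes a protein of the endoplasmic reticulum that holds back maturing Wnt and FGF receptors, and it was the only one of the 22 genes on the lists of Wnt pathway genes. Shisa2 had 66.9, 126 and 149 normalized counts in the CTRL low libraries and 528, 650.5 and 808 in CTRL high. It had 62.4, 234 and 212 in bKO high, 553 and 449.8 in aKO high and 452 and 543 in QCKO high. On date 1 Shisa2 in bKO high was no higher than in CTRL low.

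A group of 6 genes encodes receptors and their partners. Adgrg2 encodes an adhesion G protein-coupled receptor. Adgrg2 had 73.2, 48.7 and 66.7 normalized counts in the CTRL low libraries and 1479.9, 924 and 1428 in CTRL high. It had 72.8, 301 and 163 in bKO high, 1792 and 1685 in aKO high and 1421 and 1765 in QCKO high. In high CHIR, 3 of the 4 adhesion knockout libraries were above the highest CTRL library, and no bKO library came near the lowest one. Gnaz, which encodes an inhibitory G protein α subunit, was at 59.8, 60.7 and 50.8 in CTRL low, 268, 264 and 332 in CTRL high and 90.1, 86.4 and 62.4 in bKO high. Gpr153, an orphan receptor of the same superfamily as Adgrg2, was at 34.8, 46.6 and 32.8, 166, 199 and 256 and 46.2, 69.8 and 72.0 in the same groups. Gnaz was highest in bKO high on date 1, the date on which Axin2 was lowest, and its bKO high libraries all lay above the CTRL low range. Htr3a encodes a subunit of the serotonin-gated cation channel. Htr3a had 47.3, 14.1 and 12.7 normalized counts in the CTRL low libraries and 308, 441 and 260.2 in CTRL high. It had 19.6, 101 and 12.1 in bKO high, 305 and 347 in aKO high and 454 and 401 in QCKO high.

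A pair of these receptor genes encodes lectins that bind sugars on the cell surface. Asgr1 encodes a subunit of the asialoglycoprotein receptor, known from hepatocytes. Asgr1 had 41.9, 276 and 248 normalized counts in the CTRL low libraries and 1122, 2288 and 1173 in CTRL high. It had 50.8, 511 and 242 in bKO high, 808 and 756 in aKO high and 850.0 and 709.8 in QCKO high. Its control values in high CHIR did not overlap the adhesion knockouts, which were lower. Mgl2 encodes a C-type lectin known from macrophages and dendritic cells. Mgl2 had 7.14, 6.50 and 19.1 normalized counts in the CTRL low libraries and 237, 223 and 242 in CTRL high. It had 6.93, 54.3 and 25.2 in bKO high, 161 and 187 in aKO high and 117 and 148 in QCKO high. Mgl2 was likewise lower in all 4 adhesion knockout libraries than in any CTRL high library.

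The enzymes were Bcat1 and Pnp2. Rnase12 is described with them by its family, and whether its product is an active enzyme was not examined. Bcat1 encodes the cytosolic aminotransferase of branched-chain amino acids. Bcat1 had 102, 223 and 110.1 normalized counts in the CTRL low libraries and 1702, 1698 and 1807 in CTRL high. It had 131, 609.6 and 304 in bKO high, 1951 and 1837 in aKO high and 1615 and 2420.2 in QCKO high. The CTRL high libraries differed among themselves by less than the bKO high libraries did. Rnase12 belongs to the family of secreted RNase A proteins. Rnase12 had 38.4, 24.9 and 62.5 normalized counts in the CTRL low libraries and 1946, 3831 and 2227 in CTRL high. It had 113, 631 and 367 in bKO high, 2284 and 2223 in aKO high and 2621 and 2620.3 in QCKO high. It rose at least 31.2 times between the highest CTRL low and the lowest CTRL high library, the third largest such ratio of the 22 after Gm50405 (145) and Gm13003 (36.3). Pnp2 encodes a purine nucleoside phosphorylase and lies beside its near-identical paralog Pnp, so reads may be split between them. Its values were 170.5, 139.7 and 212 in CTRL low, 702, 907 and 705 in CTRL high and 125, 308 and 279 in bKO high.

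Proteins of the chromatin, the cytoskeleton and other structures made up 5 of the genes. Cecr2 encodes a bromodomain protein of a chromatin remodelling complex. Cecr2 had 48.2, 161 and 109 normalized counts in the CTRL low libraries and 1331, 1141 and 1528 in CTRL high. It had 67.0, 531 and 296 in bKO high, 985 and 1396 in aKO high and 1705 and 1291 in QCKO high. Tnnt3, the troponin T of fast skeletal muscle, was at 58.0, 39.0 and 58.2 in CTRL low, 562, 591 and 512 in CTRL high and 164, 156 and 121 in bKO high. All bKO high libraries were above all CTRL low and bKO low libraries, so a part of its rise was left. Tppp3, which encodes a protein that promotes tubulin polymerization, was at 49.1, 34.7 and 47.6, 328, 332 and 289.9 and 49.7, 126 and 74.6 in the same 3 groups. Ctxn3, a small membrane protein of the cortexin family, was at 1.79, 22.7 and 23.3, 278, 668 and 320.5 and 16.2, 104 and 75.5. Crygn, a γ-crystallin, was nearest to the limit on loss, with 130.4, 98.3 and 158 in CTRL high and 32.3, 32.1 and 47.7 in bKO high.

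The remaining 5 genes are noncoding RNAs, predicted genes or pseudogenes by name. Rmst is a long noncoding RNA described in neural development. Rmst had 33.0, 49.8 and 60.3 normalized counts in the CTRL low libraries and 682, 492 and 723 in CTRL high. It had 20.8, 204 and 195 in bKO high, 586 and 1116 in aKO high and 547 and 811 in QCKO high. In bKO low it had 12.9, 168 and 202, so on dates 2 and 3 the bKO levels at both doses lay between those of CTRL low and CTRL high. Gm50405, a predicted gene, went from 0.89, 4.33 and 4.23 in CTRL low to 629, 1130.0 and 677 in CTRL high and was at 23.1, 169.6 and 27.8 in bKO high. The predicted genes Gm13003 (126, 115 and 122 in CTRL high) and Gm14204 (120.2, 183 and 237) were at 0 to 3.18 and 0.89 to 7.58 in CTRL low. Btf3-ps11 is named as a pseudogene of the transcription factor gene Btf3, from which reads may be shared, and its values of 338, 349 and 210.0 in CTRL high and 16.2, 79.8 and 59.8 in bKO high are uncertain for that reason. The library protocol is not stated to keep strand, so reads of overlapping genes cannot be told apart either. In the RefSeq annotation this bears on 12 of the genes, among them Gm14204 (Slc32a1), Gnaz (Rsph14), Gpr153 (Hes3), Tnnt3 (Prr33) and Rmst (Mir1251). The overlapping gene is a predicted one in Adgrg2, Bcat1, Cecr2, Crygn, Htr3a, Mgl2 and Vegfc.

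**Figure D2:**
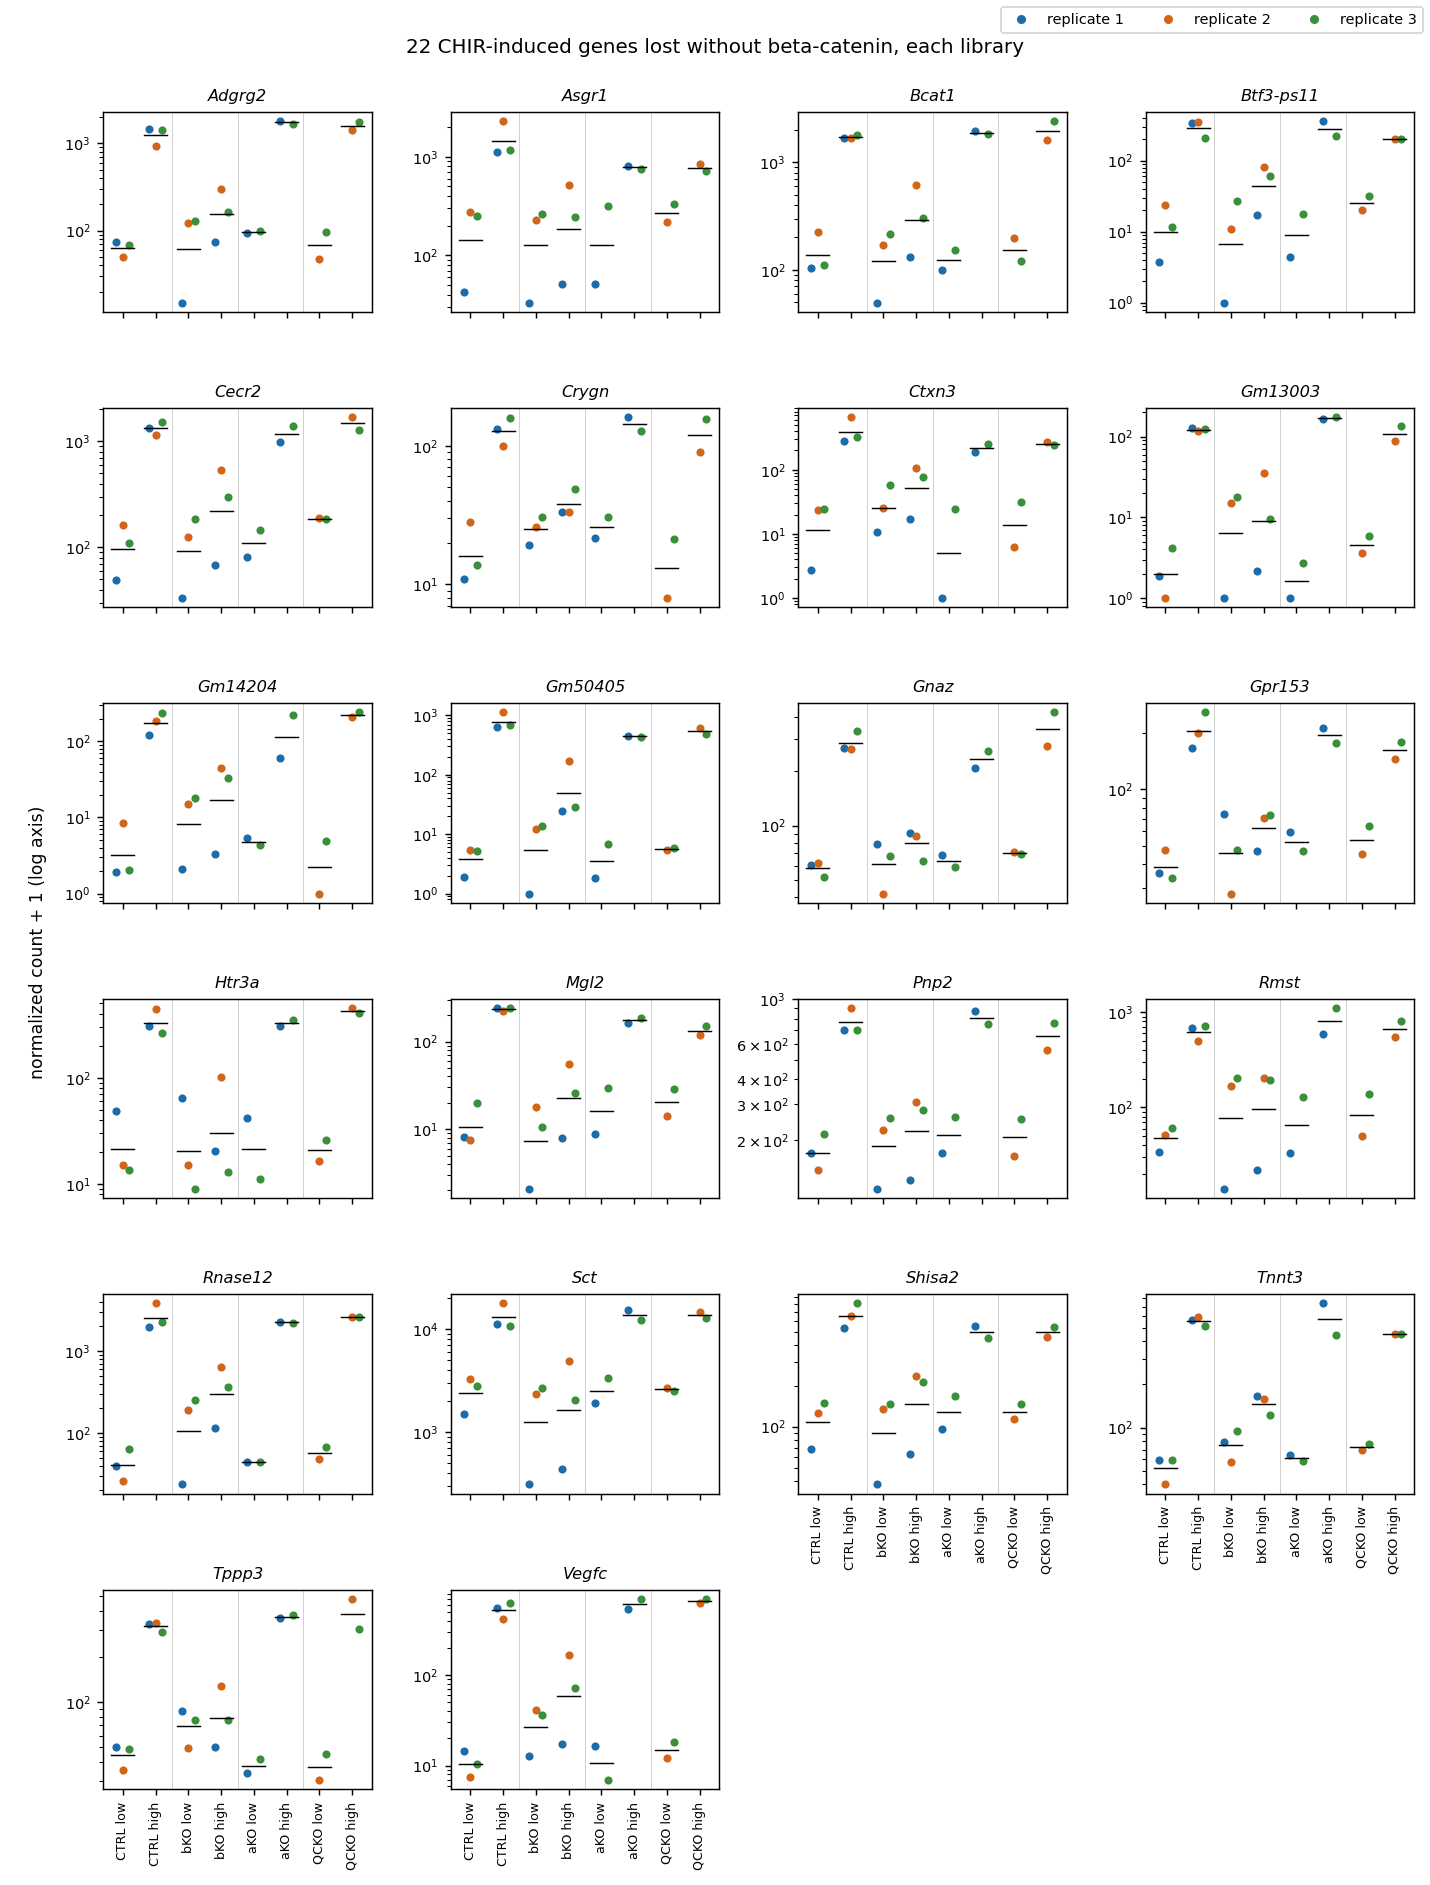
Normalized count plus 1 on a log axis for each of the 22 genes in the 20 libraries, coloured by replicate number, which stands for the date, with a bar at the mean of the log2 values of each group (low is 1.25 μM CHIR, high is 5 μM). In all 22 panels the aKO and QCKO high libraries lie above the aKO and QCKO low libraries, and the bKO high libraries lie below the aKO and QCKO high ones.

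The question that the adhesion knockouts address is whether these genes still respond to CHIR when cell adhesion, and not the nuclear role of β-catenin, is lost. Neither aKO nor QCKO entered the choice, so this response was tested, with limma on log2(normalized count + 1) over 16691 genes. This and the other limma tests took their spread from all 20 libraries, among them the CTRL libraries and the bKO high libraries that the limits used. A gene was called at a Benjamini-Hochberg adjusted p under 0.05 and an absolute log2 difference over 0.5. Of the 22 genes, 21 were called higher in high than in low CHIR over aKO and QCKO together (4 libraries against 4), where 5.08% of all genes were. The log2 differences ran from 1.74 to 6.78 with a median of 3.32, beside a median of 0.00027 over all genes. In every one of the 22, each adhesion knockout library in high CHIR was above each one in low CHIR, which held for 13.9% of all genes. Within aKO alone 16 of the 22 were called higher (1.53% of all genes) and within QCKO alone 14 (1.82%), each from 2 libraries against 2.

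The largest of these differences was that of Gm50405, whose adhesion knockout libraries had 0.86 to 5.94 in low and 431 to 607 in high CHIR, a log2 difference of 6.78 ± 0.76 (SE, 95% interval 5.16 to 8.40, adjusted p = 2.15e-05). Counts this low in low CHIR make it depend on the pseudocount, and it was 7.11 with 0.25 and 5.82 with 5. Vegfc rose by 5.66 ± 0.55 (SE, 95% interval 4.50 to 6.82, adjusted p = 5.18e-06) on the log2 scale and Rnase12 by 5.59 ± 0.61 (SE, 95% interval 4.30 to 6.89, adjusted p = 1.62e-05). Both had low-CHIR values of at most 65.6 in these 4 libraries. Adgrg2 rose by 4.36 ± 0.55 (SE, 95% interval 3.18 to 5.53, adjusted p = 6.92e-05) and Bcat1 by 3.81 ± 0.46 (SE, 95% interval 2.84 to 4.79, adjusted p = 4.27e-05). Tnnt3 had the narrowest interval of the 22, with a log2 difference of 2.92 ± 0.21 (SE, 95% interval 2.48 to 3.37, adjusted p = 1.73e-07), and Tppp3 differed by 3.33 ± 0.28 (SE, 95% interval 2.74 to 3.92, adjusted p = 1.14e-06). The smallest called difference was that of Gpr153, at 1.74 ± 0.28 (SE, 95% interval 1.14 to 2.33, adjusted p = 6.03e-04). Shisa2 rose by 1.96 ± 0.45 (SE, 95% interval 1.01 to 2.90, adjusted p = 0.00894) and Sct by 2.43 ± 0.66 (SE, 95% interval 1.03 to 3.82, adjusted p = 0.0248). The call of Sct was lost when any 1 of the 8 libraries was left out other than aKO low of date 3, with adjusted p from 0.0572 to 0.101, at log2 differences of 2.22 to 2.51. That of Rmst, at 3.31 ± 0.80 (SE, 95% interval 1.61 to 5.02, adjusted p = 0.0129), was lost without aKO low of date 1, aKO high of date 3, QCKO low of date 2 or QCKO high of date 3, at adjusted p of 0.0523 to 0.0731.

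Asgr1 was the gene that did not pass, with a log2 difference of 2.07 ± 0.80 (SE, 95% interval 0.38 to 3.77, adjusted p = 0.115). It had 49.9 and 317 in aKO low on dates 1 and 3 and 218 and 331 in QCKO low on dates 2 and 3, while all 4 high-CHIR libraries lay between 709.8 and 850.0. When the date entered the fit as a block, Asgr1 was called, at the same difference and an adjusted p of 0.00462.

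**Figure D3:**
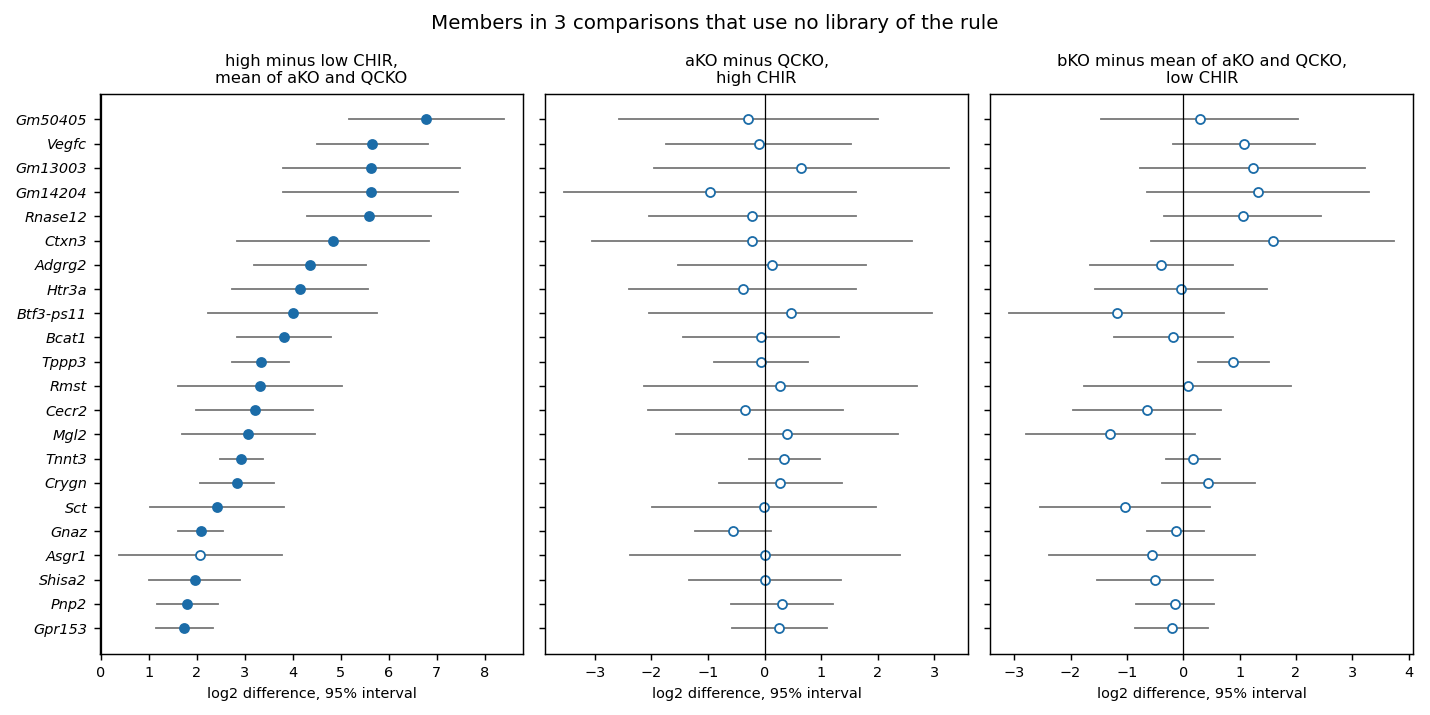
Log2 differences with 95% intervals from limma for the 22 genes in 3 comparisons, with filled points where the gene was called and open points where it was not. In the left panel 21 of the 22 points are filled and all lie above 0, and in the middle and right panels no point is filled.

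Between the adhesion knockouts themselves in high CHIR, none of the 22 genes was called different by limma, and none of all genes was either (0%), with 147 genes but none of the 22 at an unadjusted p under 0.05. edgeR and DESeq2 on the recovered reads also called none of the 22. The intervals are wide: for Sct the log2 difference aKO minus QCKO was -0.01 ± 0.93 (95% interval -1.99 to 1.97), for Tnnt3 0.35 ± 0.30 (-0.28 to 0.98) and for Gnaz -0.56 ± 0.32 (-1.23 to 0.11). A difference in their responses to CHIR was called for no gene (0%), with 80 genes at an unadjusted p under 0.05. With 2 libraries a group these comparisons do not show that both knockouts act alike.

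Set beside CTRL high, whose libraries entered the choice, the adhesion knockouts are described without a test. In 18 of the 22 genes the 4 high-CHIR libraries of aKO and QCKO overlapped the 3 of CTRL. In the other 4, Asgr1, Ctxn3, Gm50405 and Mgl2, all adhesion knockout libraries were lower than all CTRL libraries, which held for 3.64% of all genes. Ctxn3 had 187, 254, 272 and 238 in those 4 libraries against 278, 668 and 320.5 in CTRL high, and Gm50405 457, 431, 607 and 482 against 629, 1130.0 and 677. In none of the 22 were they all higher, beside 5.68% of all genes. Against bKO high, which the limits also used, the adhesion knockouts were higher in all libraries for 22 of 22 genes (11.2% of all genes).

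What was left of the response in bKO cells is also a description. In 3 of the 22 genes, Crygn, Gm50405 and Tnnt3, every bKO high library was above every bKO low library, as in 4.63% of all genes. Within dates, 14 of the 22 were higher in bKO high than in bKO low on all 3 dates (17.7% of all genes): Adgrg2, Bcat1, Btf3-ps11, Cecr2, Crygn, Ctxn3, Gm14204, Gm50405, Mgl2, Pnp2, Rnase12, Shisa2, Tnnt3 and Vegfc. In 7, Crygn, Gm50405, Gnaz, Rnase12, Tnnt3, Tppp3 and Vegfc, every bKO high library was above every CTRL low library, as in 9.36% of all genes. Rnase12 had 22.6, 191 and 251 in bKO low and 113, 631 and 367 in bKO high. Sct had 307, 2322 and 2702 and 437, 4953 and 2046, with no such order on date 3. Over the 22 genes the bKO high library of date 2 was the highest of the 3 in 18 genes (32.1% of all genes) and that of date 1 the lowest in 18 (35.9%). In bKO low, date 1 was the lowest in 17 (40.1% of all genes) and date 3 the highest in 16 (31.0%). Gnaz, Gpr153, Htr3a and Tppp3 were instead highest on date 1 in bKO low, at 78.5, 73.1, 63.4 and 86.0. Mgl2 and Vegfc were highest there on date 2, and Tnnt3, highest on date 3, was lowest on date 2.

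In low CHIR the question is whether β-catenin also carried a basal level of these genes. The bKO low group cannot settle it, because its libraries differed in the Wnt target genes. Axin2 had 14.0, 559.7 and 384 there on dates 1 to 3, against 39.3 to 71.5 in CTRL low. No low-CHIR library of bKO, aKO or QCKO entered the choice, and bKO low (3 libraries) was tested against aKO low and QCKO low (4 libraries). None of the 22 genes was called, beside 0.144% of all genes called higher in bKO and 0% lower. At an unadjusted limma p under 0.05 there was 1 of the 22, Tppp3, beside 1731 of the 16691 genes. edgeR and DESeq2 also called none of the 22, and their counts over all genes stand in the last section. Without the bKO low library of date 1, or any other library of the comparison, none was called either. The log2 differences, bKO minus the adhesion knockouts, ran from -1.30 to 1.58 with a median of -0.09. Without the bKO low library of date 1 the median was 0.44 and 7 genes changed sign, from 12 lower in bKO to 5. Over all 16691 genes, 2769 changed sign, 8429 were lower with that library and 8420 without it, and both medians were -0.004. Against the adhesion knockout libraries of the same date, 15 of the 22 were lower in bKO low on date 1, 8 on date 2 and 7 on date 3, with medians of -0.76, 0.40 and 0.31, while 49.7%, 50.6% and 48.4% of all genes were lower. Adgrg2, for example, had 14.0, 123 and 127 in bKO low on dates 1 to 3 against 92.9 and 99.3 in aKO low on dates 1 and 3 and 46.0 and 96.4 in QCKO low on dates 2 and 3. With 1 bKO library a date, these orders have no test. Tppp3 had 86.0, 49.0 and 75.3 in bKO low against 32.7 and 40.7 in aKO low and 29.5 and 44.3 in QCKO low, a log2 difference of 0.89 ± 0.30 (SE, 95% interval 0.26 to 1.52, adjusted p = 0.304). It was the only one of the 22 in which all bKO low libraries were higher, as in 7.08% of all genes.

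For the other 21 genes the 95% interval included 0. Ctxn3, with 9.67, 24.0 and 56.9 in bKO low and 0, 23.8, 5.20 and 29.9 in the adhesion knockouts, had a log2 difference of 1.58 ± 1.02 (SE, 95% interval -0.57 to 3.74, adjusted p = 0.62). Gm13003, Gm14204 and Gm50405 passed the filter through high CHIR: in these 7 low-CHIR libraries they had 0 to 16.8, 0 to 16.8 and 0 to 12.8, so their not being called says little. Vegfc was at 1.08 ± 0.59 (SE, 95% interval -0.18 to 2.33, adjusted p = 0.554) and Rnase12 at 1.05 ± 0.66 (SE, 95% interval -0.35 to 2.45, adjusted p = 0.612). At the other end Mgl2, with 1.07, 17.0 and 9.61 in bKO low and 7.74 to 28.9 in the 4 libraries of the adhesion knockouts, was at -1.30 ± 0.71 (SE, 95% interval -2.80 to 0.20, adjusted p = 0.551). Btf3-ps11 was at -1.18 ± 0.90 (SE, 95% interval -3.09 to 0.73, adjusted p = 0.686) and Sct at -1.04 ± 0.71 (SE, 95% interval -2.55 to 0.47, adjusted p = 0.648). Cecr2, Asgr1 and Shisa2 were at -0.64 ± 0.62, -0.55 ± 0.86 and -0.51 ± 0.48, and these 3 changed sign without the bKO low library of date 1, as did Btf3-ps11, Adgrg2, Bcat1 and Pnp2.

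The level of some of the genes in low CHIR went with the date across guides. Asgr1 was at 32.2 to 49.9 in the 3 low-CHIR libraries of date 1 (CTRL, bKO and aKO) and at 218 to 331 in the 7 of dates 2 and 3. In 8 of the 22 genes, Asgr1, Bcat1, Btf3-ps11, Cecr2, Gm50405, Rmst, Sct and Shisa2, all date 1 libraries were below all others, as in 5.44% of all genes. Rmst, for example, was at 12.9 to 33.0 on date 1 and at 49.4 to 202 on the other dates. Htr3a ran the other way, with 40.4 to 63.4 on date 1 and 8.01 to 25.1 on the others, and was the only one of the 22 with all date 1 libraries above all others (4.48% of all genes). These are orders among libraries, and no test was made of the date.

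In the RefSeq annotation (build GRCm38.p6), 20 of the 22 genes could be placed by their Entrez numbers, on 12 chromosomes, and Btf3-ps11 and Gm50405 could not. A few lie close together. Rnase12 is on chromosome 14 from 51056698 to 51057242, and Pnp2 lies on the same chromosome from 50956141 to 50964751, 91947 bases away. Mgl2 (70130125 to 70137542) and Asgr1 (70048909 to 70057895) lie on chromosome 11, 72230 bases apart. Of the neighbours within 100 kb, those with an identifier in the authors' tables could be read, and such tables list genes for their changes, so the neighbours below, chosen after their values were seen, are no sample of all neighbours.

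Around Rnase12 lie Rnase11, Rnase10 and Rnase9, genes of the same family known from the epididymis, and further off Rnase4 and Ang (angiogenin). Rnase11, 996 bases from Rnase12, had 2.68, 2.17 and 2.12 in CTRL low, 70.3, 85.4 and 63.5 in CTRL high and 3.47, 19.9 and 18.2 in bKO high. Without strand or read positions, transcripts of Rnase11 that run into Rnase12 cannot be told apart from its own. Rnase10 had 70.3, 33.1 and 40.7 in CTRL high and 6.93, 12.2 and 0.87 in bKO high, and Rnase9 38.6, 63.0 and 45.4 and 1.16, 12.2 and 9.54. All 3 were therefore under the limit of a mean of 100 and low in bKO. In the adhesion knockouts they were called higher in high CHIR, with log2 differences of 5.33 ± 0.50 (SE, 95% interval 4.26 to 6.40, adjusted p = 3.95e-06) for Rnase11, 5.85 ± 0.71 (SE, 95% interval 4.34 to 7.36, adjusted p = 4.57e-05) for Rnase10 and 5.07 ± 0.59 (SE, 95% interval 3.81 to 6.32, adjusted p = 3.21e-05) for Rnase9. Rnase4 kept more in bKO, at 590.3, 2967 and 2565 in bKO high against 1656, 4926 and 1965 in CTRL high, and overlaps Ang (35.8, 145 and 117 against 121, 282 and 136) in the annotation. On dates 2 and 3 Rnase4 in bKO high was above the lowest CTRL high library.

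Pnp, 2729 bases from Pnp2, had 563, 428 and 834 in CTRL low, 2388, 2723 and 2636 in CTRL high and 467, 1093 and 1084 in bKO high, and missed the list by its rise of 2.86 times. Its log2 difference in the adhesion knockouts was 1.84 ± 0.28 (SE, 95% interval 1.24 to 2.44, adjusted p = 3.69e-04). Next to Mgl2 and Asgr1, Clec10a, the paralog of Mgl2, had 4.46, 15.2 and 21.2 in CTRL low, 82.8, 89.7 and 92.5 in CTRL high and 9.24, 32.1 and 10.4 in bKO high. It missed the list by its mean of 88.3, and its difference in the adhesion knockouts was 1.75 ± 0.52 (SE, 95% interval 0.65 to 2.85, adjusted p = 0.0387), a call that was lost when any 1 library was left out other than aKO low of date 3. Like Mgl2 and Asgr1 it was lower in all 4 adhesion knockout libraries in high CHIR, 70.8, 40.3, 51.9 and 44.0, than in CTRL high. Asgr2, the partner subunit of Asgr1, had 18.1, 28.8 and 13.3 in CTRL high and 3.47, 5.54 and 5.20 in bKO high, under the filter for a test.

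**Figure D4:**
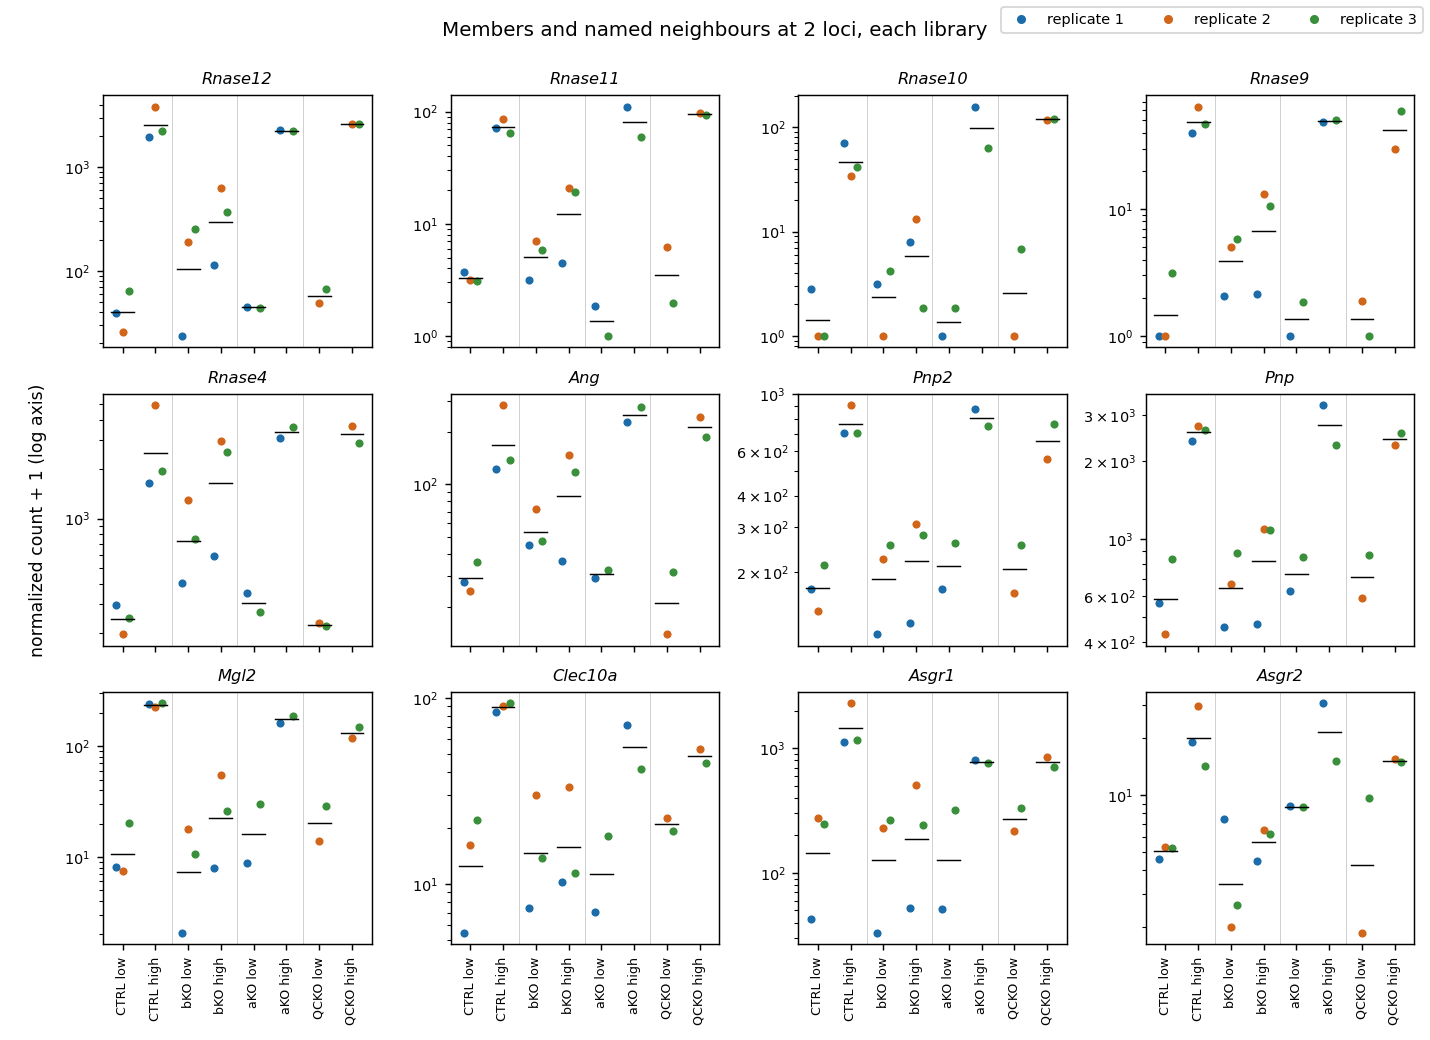
Normalized count plus 1 on a log axis in the 20 libraries for the genes around Rnase12 and Pnp2 (upper and middle rows) and around Mgl2 and Asgr1 (lower row), coloured by replicate number, with bars at group means of the log2 values. Rnase9, Rnase10 and Rnase11 are at most 19.9 in bKO high and at least 29.0 in aKO and QCKO high.

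The promoters of the genes were searched for the core that TCF and LEF factors recognise, as the motif CTTTGAT, the motif CTTTGTT, the motif CTTTGAA or the motif CTTTGTA on both strands. RefSeq promoter windows (GRCm38.p6) were held for 12 of the 22 genes, some with several start sites, and the 250 bases before each start were read. A match was present in 2 of the 12, Bcat1 and Asgr1 (16.7%), and in 16.8% of the 27025 genes in the table, or 14.8% of all 32851 windows. The share in these genes was thus near that of all genes. The matching stretches are shown because they are the only ones found, with the match in capitals. That of Bcat1 is the 150 bases before a start, chr6:145076158-145076307, minus strand. That of Asgr1 is a stretch of 30 bases inside the span of the gene, chr11:70054312-70054341, plus strand, in the window of an internal start. The match lies 15 bases before the start in Bcat1 and 26 bases before it in Asgr1.
Bcat1 promoter: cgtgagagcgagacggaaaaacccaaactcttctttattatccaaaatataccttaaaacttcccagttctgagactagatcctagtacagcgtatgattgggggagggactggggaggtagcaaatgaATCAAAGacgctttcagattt
Asgr1 promoter: tctgtttatggTTCAAAGtcccggtgttgg
Both matches read on the opposite strand as CTTTGAT and CTTTGAA. A match is a string of letters and not a known binding site, and the absence of a match in the other 10 says only that these letters are not in these windows.

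Other genes of the Wnt pathway were read from lists of feedback regulators and of ligands, receptors and partners, of which only those named in the authors' tables could be found. Those tables list genes for a change in these libraries, so the listed genes that could be tested were selected in part on such changes, and their counts are not comparable with the share over all genes. Of 23 feedback regulators and inhibitors, 8 had an identifier and 7 were tested in the adhesion knockouts. Of these 7, 3 were called higher in high CHIR (Notum, Shisa2 and Sp5) and 3 lower (Frzb, Dkk2 and Dkk3, which encode secreted proteins), beside 5.08% and 5.60% of all genes. The calls of Sp5 and Fzd10 were lost without any 1 of the 8 libraries. Notum changed by 6.58 ± 1.48 (SE, 95% interval 3.45 to 9.72, adjusted p = 0.0079) and Sp5 by 4.23 ± 1.21 (SE, 95% interval 1.66 to 6.80, adjusted p = 0.0326), while Axin2 had a log2 difference of 3.07 ± 1.05 (SE, 95% interval 0.85 to 5.30, adjusted p = 0.0737), short of the call, although its adhesion knockout values of 42.2 to 74.6 in low and 413 to 575 in high CHIR did not overlap. Of the genes on this list that fell in the adhesion knockouts, Frzb had 1610.5, 1692 and 1506 in bKO high and 372, 113 and 101 in CTRL high, and Dkk2 1114, 565 and 677 and 22.7, 18.2 and 7.84.

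Of 49 ligands, receptors and nuclear partners, 20 had an identifier and 19 were tested, with 5 called higher (Fzd6, Lef1, Wnt5b, Wnt4 and Fzd10) and 9 lower, beside 5.08% and 5.60% of all genes. Fzd6, a Wnt receptor, had 328, 352 and 582 in CTRL high and 24.3, 263 and 337 in bKO high, and rose in the adhesion knockouts by 4.73 ± 0.84 (SE, 95% interval 2.95 to 6.52, adjusted p = 0.00133). On date 3 its bKO high value lay above the lowest CTRL high value. Of 18 genes of progenitor self-renewal, 11 had an identifier and all 11 were called lower in high CHIR in the adhesion knockouts (5.60% of all genes), with the same selection behind the identifiers. Their sum was 1630 to 2395 in CTRL high, 8525 to 17647 in bKO high and 1272 to 1963 in the adhesion knockouts in high CHIR.

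The limits were close for some genes. The members nearest to the limit on the mean were Gm13003 (121), Crygn (129) and Gm14204 (180.1), and 22 genes missed only this limit, led by Trpc4 (91.4), Clec10a (88.3) and Hsd17b2 (86.0). Nearest to the 3-fold limit were Pnp2 (3.32), Sct (3.33) and Shisa2 (3.54) inside and St8sia6 (2.89), Pnp (2.86) and Hsd11b2 (2.78) outside, of 7 genes that missed it alone. Nearest to the 50% limit were Crygn (48.5%), Cecr2 (46.5%) and Sct (45.7%) inside and 1110017D15Rik (50.3%) and Lhx1os (51.1%) outside, of 86 that missed it alone. The loss was deepest, as the ratio of the lowest CTRL high to the highest bKO high library, in Mgl2 (4.11), Gm50405 (3.71), Gm13003 (3.36), Tnnt3 (3.12) and Rnase12 (3.09). In each of these the date 2 library of bKO set the ratio, except in Tnnt3, where it was that of date 1.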

How the data were processed

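Messenger RNA was sequenced in bulk from 20 libraries in 8 groups. The authors deposited signal values, which are read counts divided by 1 size factor per library. All values were whole multiples of 1 step per library (100% within a tolerance of 0.02), so reads were recovered. In bKO low replicate 2 and aKO high replicate 3 the step is near 1, which makes this check less telling there. The deposited comparison tables, used as other data for symbols only, hold the authors' own fold changes and p-values, which were not used, and 4316 genes have a symbol there. The submitters' processing notes name bcl2fastq, STAR 2.5.1a, Subread, featureCounts 1.4.6-p5, Salmon 0.8.2 and DESeq2, with the builds GRCm38, GRCh38 and mm10 and no roles.

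The log2 of each normalized count plus 1 was tested by limma 3.58.1, run in R 4.3.3 (mean-variance trend, all 20 libraries, 1 mean per group, mean normalized count of at least 10, Benjamini-Hochberg adjustment, two-sided). As alternatives, edgeR's quasi-likelihood test with TMM factors (version 4.0.16) called 1778 genes on recovered reads in the adhesion knockouts and the Wald test of DESeq2 1.42.0 called 2246, against 1782 by limma. Other alternatives were other filters and pseudocounts, quantile normalization, only the groups compared, the date as a block and leaving out each library. The members and lists were chosen with earlier results of these data known. Named in full were the 12 members of highest mean in CTRL high, the 10 of largest ratio to bKO high, those on a list, the 3 nearest to each limit and the 6 of largest and smallest difference in low CHIR. Other members are given by name. 1 of the genes that this rule names outside the limits is not reported here. Genes named beyond this rule, such as neighbours on the chromosome, were chosen after their values were seen.

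Replicate numbers pair libraries because the sample titles give each number 1 date, whose meaning they do not state. Deviations from the group means correlated across genes at 0.461 between the doses of aKO and 0.278 between those of QCKO. They correlated at 0.0737 to 0.419 between bKO low and the adhesion knockouts in low CHIR.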

Additional observations from a re-analysis of the deposited data

How the results depend on the processing

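The 3 limits chose 22 genes as set, and 17 to 29 with the other fold or mean limits or TMM rescaling. Group means in place of the lowest and highest libraries gave 144, and leaving out 1 library gave 22 to 43, where fewer libraries can only loosen the limits on rise and loss. CTRL high replicates 1 and 2 (34 and 39) and bKO high replicate 2 (43) moved the count most. The 21 genes called in the adhesion knockouts were 21 or 22 under the other settings run, except 16 at a mean of at least 100, where fewer were tested, and 19 to 21 without 1 library. Over all genes this comparison called 1782, against 1179 at a mean of at least 100 and 1116 to 1390 without 1 library, of which aKO low replicate 1 (1116), QCKO low replicate 3 (1159) and QCKO high replicate 3 (1172) moved it most.

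With the replicate block (date in the titles), 22 members and 2641 genes were called in the adhesion knockouts. In low CHIR, bKO against the adhesion knockouts, the block gave 157 genes, edgeR 104, DESeq2 361 and only the groups compared 0, against 24, and leaving out 1 library gave 1 to 102, the highest without bKO low replicate 1. No member was among them under any setting run. Between aKO and QCKO the block and DESeq2 each gave 1 gene, against 0, and no member. The block changed the call of Asgr1 only among the members.

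In low CHIR, 7 members changed sign without bKO low replicate 1, as did 2769 of all 16691 genes tested. Leaving out 1 library moved the log2 difference from -2.18 to 0.19 for Btf3-ps11, -1.16 to 0.085 for Cecr2, -1.21 to 0.42 for Asgr1 and -0.85 to 0.13 for Shisa2. These turned above 0 without it, as did Adgrg2 (0.63), Bcat1 (0.47) and Pnp2 (0.21), and Asgr1 also without aKO low replicate 3 (0.11). The cause was not tested. Members with few reads in low CHIR, such as Gm13003, Gm14204 and Gm50405, had log2 differences in the adhesion knockouts that depend on the pseudocount (4.31 to 6.37, 4.43 to 6.30 and 5.82 to 7.11 with 5 and 0.25).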
